A study of Mus musculus with 20 samples.

Results

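The genes described here encode the subunits of the proteasome and of its inducible form, the immunoproteasome, together with their activators, in muscle of control and mdx mice. Members were every gene on the array whose symbol begins with Psma, Psmb, Psmc, Psmd or Psme, which gave 43 of the 8220 genes that are the only symbol of a probe set. Of these, 41 have a proteasome role, and 2 (Psmc3ip and Psme3ip1) match by their symbol's first letters only and were left out of the counts. A total of 35 of the 41 were bright enough to test: all 14 standard subunits of the core ring, 14 of 20 regulatory particle genes, all 5 immune subunits and 2 further activators. The members were chosen by name and not by their values, though earlier results of these data were known at the time.

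The study measured total RNA on 20 one-colour Affymetrix arrays, 5 in each of 4 groups, from mice 8 weeks old. Wild-type mice gave control extraocular muscle (EOM, the small muscles that move the eye) and control leg muscle, which the labels call gastrocnemius/soleus. The mdx mice lack full-length dystrophin throughout the body because of a stop codon in Dmd, and gave extraocular muscle and muscle labelled only as leg. Strain and sex are not given, no group carries a transgene or a drug, and the labels do not say whether the arrays of a group came from separate animals, so the tests measure the spread between arrays. Control and mdx arrays carry different descriptions in the labels, so preparation and genotype cannot be told apart within a muscle.

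The 26S proteasome degrades proteins that have been tagged with ubiquitin. Its 20S core is a stack of rings of alpha and beta subunits, of which Psmb5, Psmb6 and Psmb7 carry the active sites, and the 19S regulatory particle (Psmc ATPases and Psmd subunits) recognises, unfolds and feeds in the substrate. Interferon gamma induces Psmb8, Psmb9 and Psmb10, which replace Psmb5, Psmb6 and Psmb7 in newly assembled cores, and Psme1 and Psme2, which form the PA28 cap. The immunoproteasome is abundant in haematopoietic cells and makes peptides for MHC class I. Leg muscle of mdx mice goes through rounds of fibre necrosis, inflammation and regeneration, whereas extraocular muscle is largely spared.

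Promoter sequences are shown for Psmb8, an immune subunit, and for the standard active-site genes Psmb5 and Psmb6. They were chosen because they carry different short motifs close to the transcription start. Each stretch is 60 bases, 5′ to 3′ on the strand of the gene, from RefSeq on build GRCm38.p6, with the motif in capitals. Psmb8 (chr17:34198073-34198132, plus strand, bases -122 to -63 from the start) holds TTCNNNGAA, the interferon-gamma activated site. Psmb5 (chr14:54618008-54618067, minus strand, bases -72 to -13) and Psmb6 (chr11:70525297-70525356, plus strand, bases -60 to -1) hold TGACNNNGC, the core of the antioxidant response element.
Psmb8: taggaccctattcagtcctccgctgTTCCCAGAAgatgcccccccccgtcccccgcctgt
Psmb5: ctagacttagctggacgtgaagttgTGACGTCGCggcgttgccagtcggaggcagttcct
Psmb6: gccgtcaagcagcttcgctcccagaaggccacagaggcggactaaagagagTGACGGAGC

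The RefSeq promoter table held 35 of the 41 members, with 38 promoters, and both strands of the 250 bases before each start were searched. TTCNNNGAA stood in 1 of the 38 member promoters, that of Psmb8, and in 7.02% of all 32851 promoters in the table. TGACNNNGC stood in 5 of 38 (13.2%; Psmb5, Psmb6, Psmc6, Psmd9 and Psmd12) against 10.2% of all promoters. The interferon-stimulated response element, searched as 2 copies of GAAA with any 2 bases between, stood in the promoters of Psmb3, Psmd4 and Psmd9 and in none of the 5 immune subunits (7.89% of member promoters against 2.98% of all). CCAAT stood in 13 of 38 (34.2%) against 33.8% of all. A match says that these letters are in the window, not that a factor binds there. In the RefSeq order of genes, Psmb9, Tap1, Psmb8 and Tap2 are neighbours on chromosome 17, in the MHC class II region, and Psme1 and Psme2 lie on chromosome 14 with Emc9 between them.

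On each array 47.2% to 52.0% of probe sets reached a scaled intensity of 200, after all arrays had been scaled to a trimmed mean of 500. For the actin control, the log2 ratio between its 3′ and 5′ probe sets was -3.61 to -0.22 on the mdx leg arrays. It was 0.06 to 0.94 in control leg and -0.38 to 0.53 over both EOM groups. For the Gapdh control it was -2.70 to -2.38 in mdx leg, inside the control leg range of -3.65 to -1.27. The part of the actin shift in the mdx leg differences was not tested. Summed muscle fibre markers (14 genes) were 54579 to 171881 on the leg arrays and 80490 to 140256 on the extraocular arrays, so muscle RNA was high on all 20. The probe set for Dmd gave 149 ± 40.2 in control leg, 77.5 ± 32.3 in mdx leg, 268 ± 47.4 in control EOM and 119 ± 31.7 in mdx EOM (mean ± SD, n = 5 each, as everywhere below). The summed intensity of 21 macrophage markers was 5656 to 7634 in control leg, 44918 to 58795 in mdx leg, 8588 to 12341 in control EOM and 9333 to 17042 in mdx EOM. A list of 18 genes of interferon gamma signalling held Ifng, its receptors and Jak kinases as well as induced genes. Control leg array 1 and control EOM array 1 stood apart for its summed intensity, which was 10295 and 14508 on them and 5249 to 8195 on the other 18 arrays. The leg and EOM values of Psmb8, Psmb9 and their class I partners are therefore given with and without these arrays.

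In mdx leg muscle all 5 immune subunits had a higher mean than in control leg, where 56.5% of all probe sets were lower. None of the 5 passed the test at a 5% false discovery rate, where 17.9% of the 7204 probe sets tested were called. At an unadjusted p of 0.05 there were 3 of 5, against 29.5% of all probe sets. The immunoproteasome subunits Psmb8 and Psmb9 passed once control leg array 1 was left out, at 2.01-fold and 3.70-fold. That array was singled out after the values were seen. It is the highest control leg array for both genes, so leaving it out must widen their differences. The tests were limma's moderated tests across all probe sets on log2 values, with Benjamini-Hochberg adjustment.

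Psmb9 (beta1i, which takes the place of Psmb6) was measured at 383, 120, 67.0, 72.1 and 177 on control leg arrays 1 to 5 and at 363, 336, 424, 335 and 411 on the mdx leg arrays. The mdx arrays lay close together, and only control array 1 reached their range. The mean was 164 ± 130 in control leg and 374 ± 41.6 in mdx leg, a log2 difference of 1.50 (SE 0.52, 95% interval 0.41 to 2.59, limma adjusted p = 0.0506). Without control leg array 1 the difference was 1.89 (limma adjusted p = 0.0133), and every mdx leg array was then above every control leg array. Over the 20 fits that each left out 1 array the limma adjusted p ran from 0.0133 to 0.125. It passed in 3 of them, without control leg array 1 and without control EOM array 1 or 2, and in 7 of 13 other alternatives (adjusted p 0.0026 to 0.118), among them a floor of 100 and a fit of the leg groups alone. The gene reached 200 on 11 of the 20 arrays, so much of its range is near background.

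Psmb8 (beta5i, which takes the place of Psmb5) was measured at 1409, 424, 536, 525 and 562 on the control leg arrays and at 634, 883, 1482, 1223 and 1115 on the mdx leg arrays. Control array 1 was above 4 of the 5 mdx arrays, and the other 4 control arrays were below all 5. The log2 difference was 0.72 with all arrays (SE 0.30, 95% interval 0.10 to 1.33, limma adjusted p = 0.103) and 1.01 without control leg array 1 (limma adjusted p = 0.00836). It also passed without mdx leg array 1 (limma adjusted p = 0.0429), and in none of the other 18 fits that left out 1 array.

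Psmb10 (beta2i, which takes the place of Psmb7) was measured at 992, 834, 837, 803 and 952 in control leg and at 1138, 991, 1567, 906 and 1373 in mdx leg. The groups overlapped by the lowest mdx arrays. The log2 difference of 0.41 (SE 0.17, 95% interval 0.06 to 0.76) did not pass, with an adjusted p of 0.0975 in limma and of 0.0513 to 0.263 over the fits that left out 1 array.

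The PA28 genes showed smaller or less certain differences in leg. Psme1 (PA28 alpha) was measured at 942, 774, 651, 980 and 687 in control leg and at 897, 820, 993, 902 and 756 in mdx leg, and the groups overlapped widely (log2 difference 0.13, 95% interval -0.19 to 0.45, limma adjusted p = 0.632). Psme2 (PA28 beta) was dim, at 200, 194, 127, 175 and 351 in control leg and at 412, 338, 330, 80.5 and 485 in mdx leg. Its log2 difference was 0.51 with an interval of -0.42 to 1.44 (limma adjusted p = 0.493). A brighter probe set that is shared by Psme2 and Psme2b, at 682 to 1277 over the 20 arrays, gave 0.08 (limma adjusted p = 0.731).

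**Figure D1:**
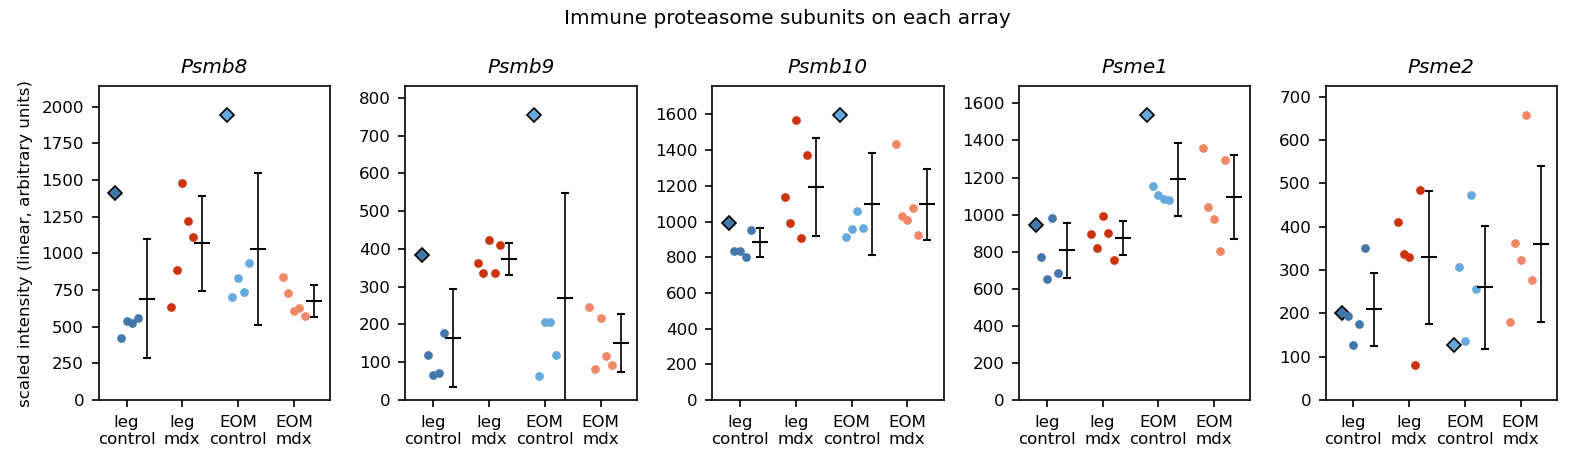
Scaled intensity (linear, arbitrary units) of the 5 immune subunits on each of the 20 arrays, by group; points are arrays, diamonds with a black edge are the control arrays numbered 1, and black bars are the mean ± SD (n = 5), cut at 0. For Psmb9 the mdx leg arrays lie at 335 to 424 and 4 of the 5 control leg arrays at 67.0 to 177; for Psmb8 and Psmb9 the diamonds stand above the rest of their groups.

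The high values of the control arrays numbered 1 were shared by some genes of the interferon gamma response. Of 18 listed, array 1 was the highest of its group for 8 in control leg and for 12 in control EOM. These arrays were singled out by the sum of the same 18 genes, so the count describes them and is no separate support. The same count over all probe sets was not made. Among the 30 tested members that are not immune subunits, array 1 was the highest for 24 in control leg and 2 in control EOM. For Psmb8, array 1 was 2.75 times the mean of the other 4 arrays in control leg and 2.43 times in control EOM, and for Psmb9 it was 3.51 and 5.08 times. The factor was 1.16 and 1.64 for Psmb10 and 1.22 and 1.39 for Psme1, while Psme2 was lower on array 1 than on the others (0.944 and 0.437 times). Gbp2, an interferon-induced guanylate-binding protein, was at 1628 on control leg array 1 against 231 to 386 on the other 4, and at 3083 on control EOM array 1 against 406 to 554. Tap1, the peptide transporter encoded beside Psmb9, was at 559 against 66.3 to 286 in leg and at 1100 against 206 to 392 in EOM. Irf1, a transcription factor induced by interferon gamma, was at 746 against 290 to 530 and at 1271 against 495 to 751.

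The mdx leg arrays shared that pattern in part. Gbp2 was at 212 to 421 there, far below control leg array 1, whereas Tap1 was at 443, 473, 520, 444 and 347, above the other 4 control leg arrays, and Irf1 was at 461 to 739. The summed interferon gamma list was 6348 to 8195 on the mdx leg arrays. The summed macrophage markers on control leg array 1 were 5656, the lowest of the control leg arrays, and on control EOM array 1 they were 12341, the highest of the control EOM arrays. What set the arrays numbered 1 apart was not tested, and the deviations of the 2 arrays from their group means over all tested probe sets correlated at r = 0.007.

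**Figure D2:**
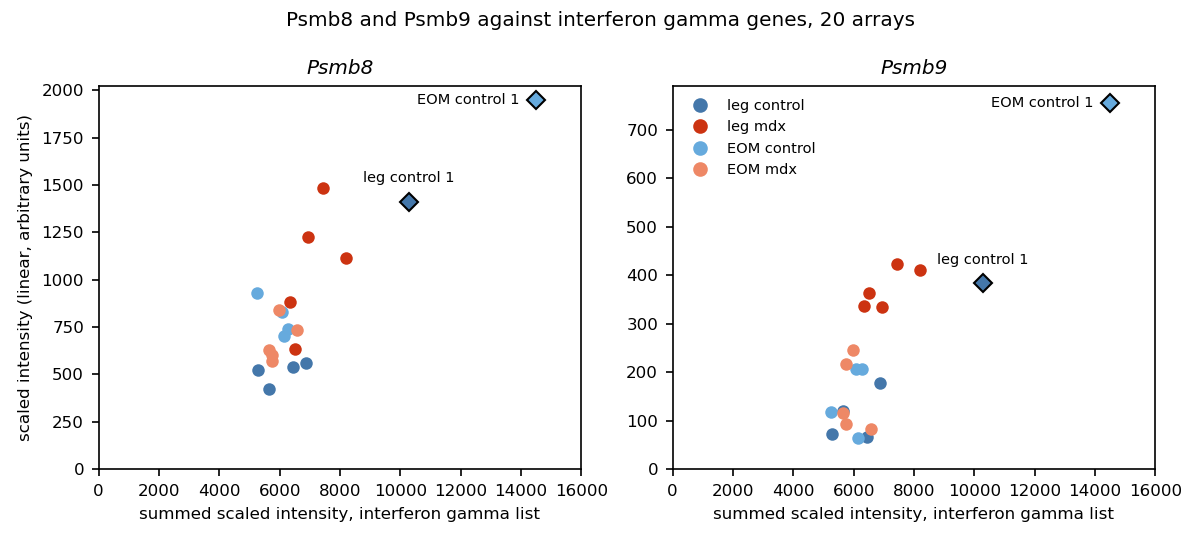
Scaled intensity of Psmb8 (left) and Psmb9 (right) on each of the 20 arrays against a summed scaled intensity on the same array. The sum is over 18 genes of interferon gamma signalling, and all values are linear in arbitrary units and coloured by group. Control leg array 1 (10295 on the x axis) and control EOM array 1 (14508) lie to the right of the other 18 arrays, while the mdx leg arrays reach Psmb9 values of 335 to 424 at sums of 6348 to 8195; the arrays share the scaling of their total intensity.

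In extraocular muscle the immune subunits showed no called difference between mdx and control: 0 of 35 members passed in limma, 0 had an unadjusted p under 0.05, and 0.0833% of all probe sets tested were called, 0.0416% in each direction. Psmb8 was measured at 1946, 702, 830, 737 and 932 in control EOM and at 839, 733, 605, 628 and 573 in mdx EOM. The groups overlapped, and array 1 set the upper end of the controls. The log2 difference was -0.51 (95% interval -1.12 to 0.11, limma adjusted p = 0.999) and -0.25 without control EOM array 1. Psmb9 was measured at 756, 64.3, 207, 206 and 118 in control EOM and at 247, 81.9, 217, 117 and 92.4 in mdx EOM. These overlapped throughout, with a log2 difference of -0.47 (95% interval -1.56 to 0.61), which became 0.02 without control EOM array 1. Psmb10 differed by 0.01 (95% interval -0.33 to 0.36), from 1600, 913, 955, 1061 and 964 in control EOM to 1436, 1029, 1010, 1078 and 926 in mdx EOM. Here array 1 was the highest of both groups.

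The mdx effect in leg was tested against that in EOM, and 0 of 35 members were called, where 6.22% of all probe sets were called, 4.93% as higher and 1.29% as lower in leg. At an unadjusted p of 0.05 there were 3 of 35 members and 18.3% of all probe sets. For Psmb8 the leg effect exceeded the EOM effect by 1.22 (SE 0.42, limma adjusted p = 0.0945). That difference was 1.52 without control leg array 1 (limma adjusted p = 0.0109), 0.97 without control EOM array 1 (limma adjusted p = 0.157) and 1.26 without both (limma adjusted p = 0.00801). It also passed without mdx leg array 1, at 1.40 (limma adjusted p = 0.0459). For Psmb9 it was 1.98 (limma adjusted p = 0.139), and 1.86 without both control arrays numbered 1 (limma adjusted p = 0.0662), so a difference between the muscles was not shown for Psmb9.

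Between the muscles of control mice all 5 immune subunits had a higher mean in EOM than in leg, where 47.8% of all probe sets were lower. Of the 5, 1 passed, against 17.7% of all probe sets called and 10.3% called higher. That was Psme1, at 1540, 1152, 1104, 1083 and 1080 in control EOM against 651 to 980 in control leg. Every EOM array was above every leg array. The fold was 1.48 (log2 0.57, SE 0.16, 95% interval 0.25 to 0.89, limma adjusted p = 0.0129), and the call held in all 20 fits that left out 1 array and in all 14 other alternatives. Psmb8 was 0.61 higher on the log2 scale (limma adjusted p = 0.178). It passed without control leg array 1 (0.90, limma adjusted p = 0.018) and without both arrays numbered 1 (0.64, limma adjusted p = 0.039). Without control EOM array 1 alone it did not (0.35, limma adjusted p = 0.449), and Psmb9 and Psmb10 were then 0.03 and 0.14 higher. The brighter probe set shared by Psme2 and Psme2b was lower in EOM (-0.11, limma adjusted p = 0.64). Between the muscles of mdx mice, where 18.1% of all probe sets were called and 9.24% were called higher, none of the 5 immune subunits passed in limma (2 at an unadjusted p of 0.05, against 29.3% of all probe sets). Psmb9 came nearest to the threshold there, with every mdx EOM array (81.9 to 247) below every mdx leg array and a log2 difference of -1.45 (limma adjusted p = 0.0596). It passed without control leg array 1 (limma adjusted p = 0.0368) and without both arrays numbered 1 (0.00977), since those arrays enter the shared estimate of the spread. Psmb8 differed by -0.62 there (limma adjusted p = 0.168). It did not pass without either array alone and passed without both (limma adjusted p = 0.0219).

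Each immune subunit was also set against the standard subunit it replaces, within each array and relative to the mean of the control leg arrays, as a description with no test. Psmb9 over Psmb6 was 1.60 ± 0.32 on the log2 scale in mdx leg (1.21 to 2.03), above all control leg arrays (-0.82 to 0.56). It was 0.88 ± 1.38 in control EOM and 0.32 ± 0.76 in mdx EOM, both of which overlapped control leg. Psmb10 over Psmb7 was 0.72 ± 0.44 in mdx leg, 0.75 ± 0.44 in control EOM and 0.88 ± 0.32 in mdx EOM, and all 15 of those arrays (0.28 to 1.52) lay above the control leg arrays (-0.41 to 0.13). Psmb8 over Psmb5 was 0.63 ± 0.52 in mdx leg, 0.99 ± 0.54 in control EOM and 0.57 ± 0.32 in mdx EOM. All of these overlapped control leg, whose array 1 stood at 1.11 and whose other arrays stood at -0.61 to -0.02. Probe sets bind their targets differently, so a ratio shows change between arrays and not how much of each subunit a muscle holds.

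**Figure D3:**
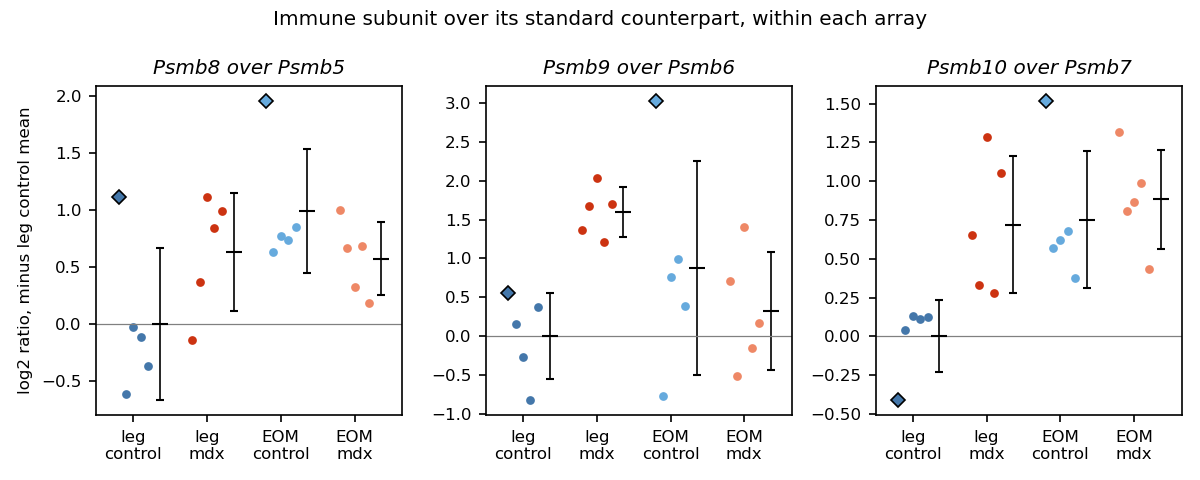
Log2 ratio of each immune subunit to its standard counterpart within each of the 20 arrays, minus the mean of the 5 control leg arrays, by group; points are arrays, diamonds with a black edge are the control arrays numbered 1, and black bars are the mean ± SD. Psmb10 over Psmb7 lies at 0.28 to 1.52 in mdx leg and in both EOM groups and at -0.41 to 0.13 in control leg, while Psmb9 over Psmb6 is above the control leg range on every array of mdx leg but not of EOM.

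The partners of the immunoproteasome in class I presentation were read from a list of 12 genes, 7 of them tested. In mdx leg 4 of 7 rose and none fell, where 10.7% of all probe sets rose. The median log2 difference was 0.77 against -0.06 over all probe sets. H2-D1 and H2-K1, the class I heavy chains, rose by 1.21 (limma adjusted p = 5.33e-04) and 0.77 (limma adjusted p = 0.00802). H2-D1 was 2123 ± 478 in control leg and 4871 ± 760 in mdx leg, with every mdx array above every control array. Tapbp, the tapasin that bridges class I to the transporter, rose by 0.62 (limma adjusted p = 0.016), and the chaperone Pdia3 by 1.30 (limma adjusted p = 0.0222). Without control leg array 1 the calls of H2-D1, H2-K1 and Tapbp held, and Pdia3 no longer passed (1.12, limma adjusted p = 0.0646). Tap1 had a log2 difference of 0.99 that did not pass (limma adjusted p = 0.115) and of 1.32 without control leg array 1, which did (limma adjusted p = 0.0277). The mdx effect was larger in leg than in EOM for H2-D1 (by 1.46, limma adjusted p = 0.0071) and H2-K1 (by 1.01, limma adjusted p = 0.0323), with control EOM array 1 the highest of its group for both, at 5848 and 7906. Without that array these differences were 1.16 (limma adjusted p = 0.00137) and 0.77 (limma adjusted p = 0.0229). In mdx EOM none of the 7 passed in limma.

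Of 11 tested genes of interferon gamma signalling, 1 rose in mdx leg, where 10.7% of all probe sets rose, and the list's median was 0.01. That gene was Irf8, a transcription factor of myeloid cells, which rose by 1.64 (limma adjusted p = 7.72e-04). Markers of other cell types also differed in mdx leg. All 15 tested macrophage markers rose there, as did 6 of 7 tested class II and dendritic cell markers and 7 of 8 fibroblast markers. Fewer rose among T and NK cell markers (1 of 3 tested), neutrophil markers (1 of 5 tested) and satellite cell markers (2 of 8 tested), against 10.7% of all probe sets. Of 10 endothelial markers 1 fell, against 7.15% of all probe sets, and 0 of 6 B cell markers passed in limma. The part these cells play in the level of the immune subunits was not tested, and in whole muscle more cells of a type and more RNA per cell cannot be told apart.

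Among the 30 tested members that are not immune subunits, the clearest pattern lay between the muscles rather than between the genotypes. In control mice 29 of the 30 had a lower mean in EOM than in leg, with a median log2 difference of -0.27, where 47.8% of all probe sets were lower and the median over all was 0.02. Of the 30, 7 passed as lower and 0 as higher, against 7.41% of all probe sets called lower. The remaining gene was Psmd5, a chaperone of regulatory particle assembly, at 0.17, whose values spread widely in mdx EOM (905, 796, 114, 315 and 1210). Over the 33 alternatives that test the same 30 genes the number lower was 26 to 29. It was 26 without control leg array 1, with a median of -0.16, and 32 of 36 genes were lower with no filter. That array was the highest of the 5 control leg arrays for 24 of the 30 genes. In mdx mice 25 of the 30 were lower in EOM, with a median of -0.17, where 49.9% of all probe sets were lower with a median of 0.00. Of the 30, 5 passed as lower, against 8.83% of all probe sets.

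**Figure D4:**
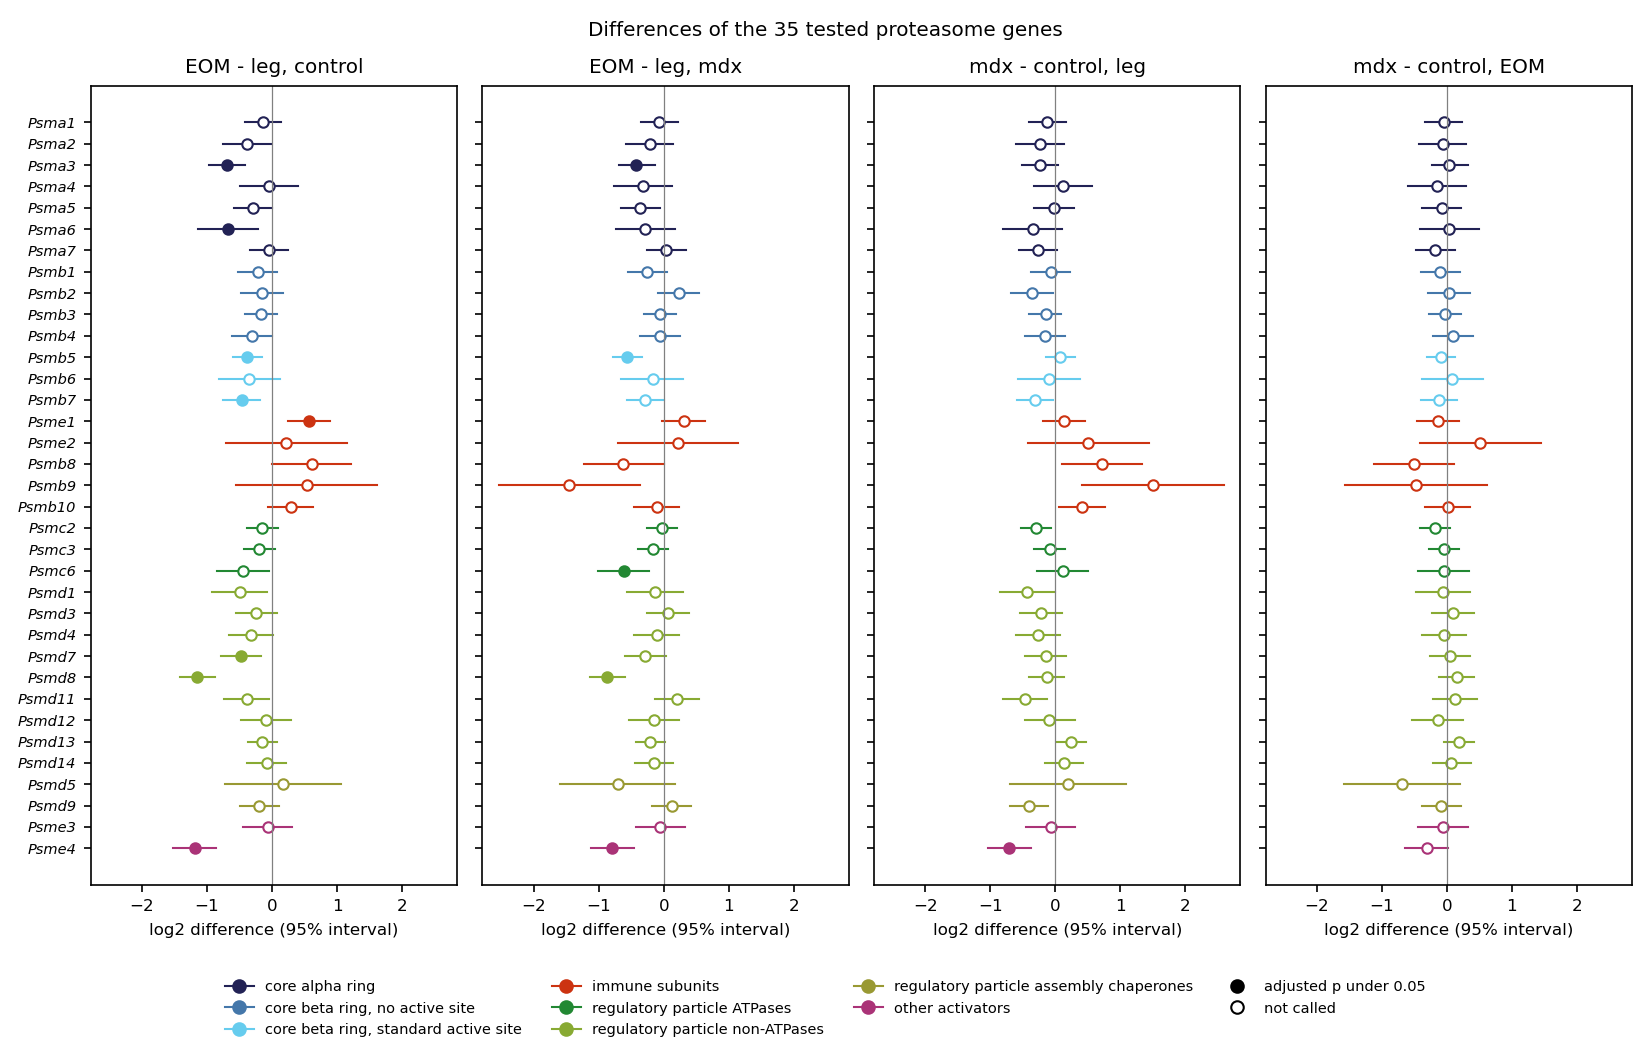
Log2 difference of every tested member in 4 comparisons, with members ordered by role; points are limma estimates, bars are 95% intervals, and filled points passed at a 5% false discovery rate over all 7204 probe sets. In the comparison of control EOM with control leg 29 of the 30 members other than immune subunits lie below 0, and in mdx against control leg Psme4 is the called member.

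Of the 7 alpha subunits, which form the outer rings and gate the core, all 7 were lower in control EOM. Of these, 2 passed, against 7.41% of all probe sets called lower. Psma3 was measured at 14639, 9671, 9349, 9789 and 12340 in control leg, 9185, 9514, 8691, 9949 and 9351 in mdx leg, 5943, 7064, 6527, 6460 and 8104 in control EOM, and 6714, 7421, 7385, 5783 and 7880 in mdx EOM. Every EOM array was below every leg array, in both genotypes. EOM was 1.62-fold lower in control mice (log2 -0.70, SE 0.13, limma adjusted p = 6.51e-04) and 1.33-fold lower in mdx mice (log2 -0.42, limma adjusted p = 0.0311). The mdx call was lost without mdx leg array 2, 4 or 5 or mdx EOM array 1 or 4, with adjusted p up to 0.0884.

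Psma6 was 7131 ± 1858 in control leg and 4483 ± 1191 in control EOM, on arrays that overlapped (9697, 7166, 6749, 4502 and 7540 against 5474, 4536, 4437, 2536 and 5430). Its log2 difference was -0.68 (limma adjusted p = 0.0361). The call was lost in 7 of the 20 fits that left out 1 array, those without control leg array 1, 2, 3 or 5 or control EOM array 2, 3 or 4, with adjusted p up to 0.121.

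The 7 standard beta subunits were all lower in control EOM by their brightest probe sets. Of the 3 with an active site 2 passed, against 7.41% of all probe sets called lower. Of the 4 without one 0 did in limma (1 at an unadjusted p of 0.05, against 28.7% of all probe sets). Dimmer probe sets gave 0.03 for Psmb1 and -0.45 for Psmb4, and neither passed (limma adjusted p = 0.971 and 0.265). Psmb5 (beta5, the chymotrypsin-like site, whose promoter stretch is printed above) was measured at 3646, 3633, 3047, 3178 and 4055 in control leg, 3904, 3824, 3829, 3831 and 3148 in mdx leg, 2812, 2535, 2724, 2471 and 2892 in control EOM, and 2346, 2577, 2699, 2187 and 2821 in mdx EOM. No EOM array reached the lowest leg array in either genotype. EOM was 1.30-fold lower in control mice (log2 -0.38, limma adjusted p = 0.0148) and 1.47-fold lower in mdx mice (log2 -0.56, limma adjusted p = 6.49e-04). Both calls held in all 20 fits that left out 1 array. The mdx effect in leg was 0.08 (95% interval -0.14 to 0.30).

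Psmb7 (beta2, the trypsin-like site) was measured at 7127, 4390, 4126, 4013 and 4711 in control leg and at 3020, 3330, 3354, 3580 and 4014 in control EOM. The groups touched at a single EOM array, and control leg array 1 stood far above the rest. The log2 difference was -0.47 (limma adjusted p = 0.0188), which did not pass without control EOM array 1 (0.0515) or without both arrays numbered 1. Psmb6 (beta1, the caspase-like site) overlapped between the muscles, at 1615 to 5213 in control leg and 1812 to 2462 in control EOM (log2 -0.35, limma adjusted p = 0.336).

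All 3 tested ATPases and all 9 tested non-ATPase subunits of the regulatory particle were lower in control EOM by their brightest probe sets. Of the 12, 2 passed (Psmd7 and Psmd8), against 7.41% of all probe sets called lower. Dimmer probe sets gave 0.02 for Psmd11 and -0.02 and -0.29 for Psmc3, and none passed (limma adjusted p = 0.98, 0.972 and 0.288). Psmd8 (Rpn12, a lid subunit) was measured at 2063, 1696, 1792, 1377 and 1751 in control leg, 1838, 1735, 1459, 1627 and 1274 in mdx leg, 648, 937, 692, 869 and 771 in control EOM, and 806, 839, 969, 898 and 803 in mdx EOM. The highest EOM array, at 969, was below the lowest leg array, at 1274. EOM was 2.22-fold lower in control mice (log2 -1.15, SE 0.13, limma adjusted p = 1.62e-06) and 1.83-fold lower in mdx mice (log2 -0.87, limma adjusted p = 5.37e-05), and both calls held in every fit that left out 1 array. Psmd8 showed no called mdx effect in leg (-0.13, 95% interval -0.40 to 0.14) or in EOM (0.15, 95% interval -0.12 to 0.42).

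Psmd7 (Rpn8, which pairs with the deubiquitinase Psmd14) was measured at 4503, 2760, 3372, 2936 and 2532 in control leg and at 2161, 2145, 2217, 2104 and 2749 in control EOM. Control EOM array 5 overlapped the leg arrays and the other 4 did not. Its log2 difference of -0.48 (limma adjusted p = 0.0297) did not pass without control leg array 1 or 3 or control EOM array 1, 2, 3 or 4 (adjusted p up to 0.0866). Psmc6 (Rpt4, an ATPase) passed between the muscles of mdx mice, while its control comparison did not (log2 -0.45, limma adjusted p = 0.117). In mdx mice it was measured at 6029, 6892, 6975, 8000 and 4352 in leg and at 4358, 4762, 5072, 4908 and 2336 in EOM. The lowest leg array, number 5, overlapped the EOM arrays. The log2 difference was -0.61 (limma adjusted p = 0.0274), lost without mdx leg array 2, 3 or 4 or mdx EOM array 5 with adjusted p up to 0.0819.

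Psme4, the PA200 activator, which caps the core in the nucleus and acts on acetylated histones without ubiquitin, was the 1 of 35 members called between mdx and control leg. It was measured at 3584, 2866, 2441, 2259 and 2856 in control leg and at 2049, 1972, 1711, 1728 and 1170 in mdx leg. Every mdx array was below every control array. The mean fell from 2801 ± 511 to 1726 ± 344, 1.63-fold (log2 -0.71, SE 0.16, 95% interval -1.04 to -0.38, limma adjusted p = 0.00292). The call held in all 20 fits that left out 1 array (adjusted p 0.002 to 0.0109) and in all 14 other alternatives (0.00217 to 0.0141). A share of 7.15% of all probe sets was called lower in this comparison.

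Psme4 was lower in EOM than in leg in both genotypes. It was measured at 1018, 1155, 1186, 1202 and 1572 in control EOM and at 781, 969, 1005, 1170 and 1007 in mdx EOM, which overlapped (log2 -0.31, 95% interval -0.64 to 0.02, limma adjusted p = 0.974). The mdx effect was not shown to differ between leg and EOM (-0.40, limma adjusted p = 0.377). Control EOM was 2.28-fold below control leg (log2 -1.19, limma adjusted p = 1.28e-05) and mdx EOM 1.73-fold below mdx leg (log2 -0.79, limma adjusted p = 0.00104), with the arrays apart in both genotypes. Psme3, which encodes the nuclear PA28 gamma activator, was close to level, at -0.07 in each of mdx leg against control leg and control EOM against control leg. The cell types whose markers were called between mdx and control leg are given above, while 0 of 12 tested muscle fibre markers passed there (their median was -0.34). The part of these cell types in the Psme4 difference was not tested.

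**Figure D5:**
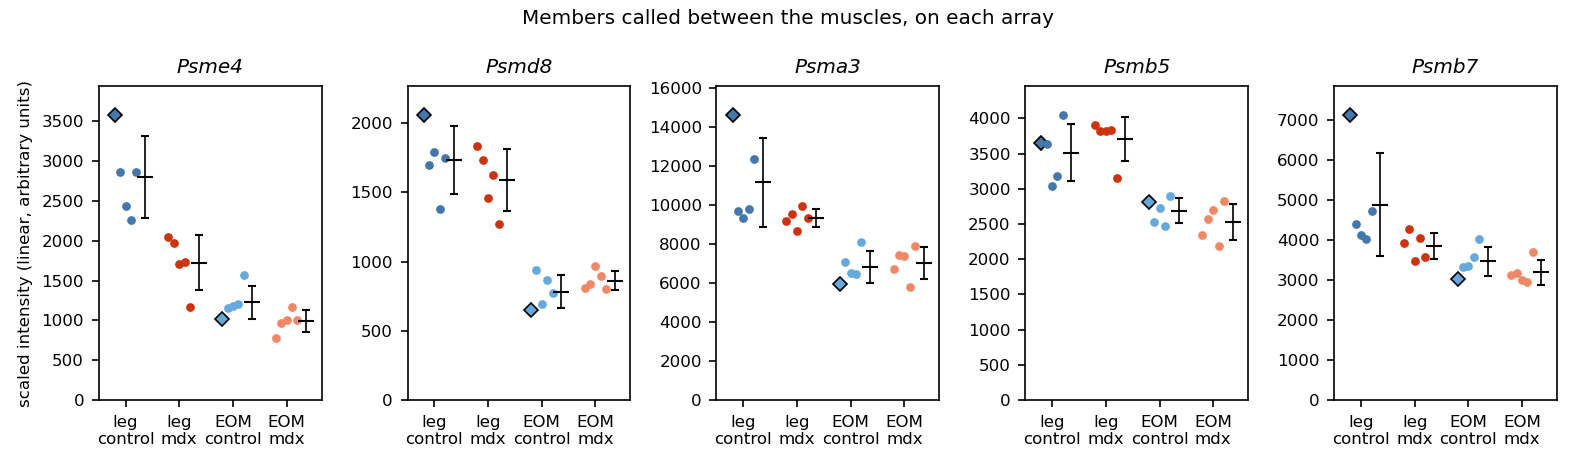
Scaled intensity (linear, arbitrary units, axes from 0) of 5 members called between the muscles on each of the 20 arrays, by group; points are arrays, diamonds with a black edge are the control arrays numbered 1, and black bars are the mean ± SD. For Psmd8 every leg array lies at 1274 or above and every EOM array at 969 or below, and for Psme4 the mdx leg arrays (1170 to 2049) lie below the control leg arrays (2259 to 3584).

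Apart from Psme4, none of the 30 members outside the immune subunits passed between mdx and control leg, with 8 of the 30 under an unadjusted p of 0.05, against 29.5% of all probe sets. Of the 30, 24 had a lower mean in mdx leg (80.0%, median -0.15), where 56.5% of all probe sets were lower with a median of -0.06. Without control leg array 1 the number was 18 and the median -0.06. The lid subunit Psmd11 (-0.47, limma adjusted p = 0.0533), the assembly chaperone Psmd9 (-0.40, limma adjusted p = 0.0556) and the ATPase Psmc2 (-0.29, limma adjusted p = 0.0749) came nearest to the threshold. A second, dimmer probe set of Psmd11 gave -0.06 (limma adjusted p = 0.922). In EOM 19 of the 30 were lower in mdx (63.3%, median -0.05), where 53.2% of all probe sets were lower with a median of -0.02.

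Markers of some cell types differed between the muscles too. In control mice 5 of 8 fibroblast markers and both tested Schwann cell markers were called higher in EOM, where 10.3% of all probe sets were. The Schwann cell sums were 6194 to 8328 in EOM and 1027 to 2349 in leg. For endothelial markers (2 of 10) and macrophage markers (3 of 15) the share called higher was nearer to that of all probe sets. Of 12 tested muscle fibre markers, 1 was higher and 1 lower in EOM. The control leg arrays differed among themselves: summed slow fibre markers were 3388 to 94719 there and 33741 to 46966 in control EOM. Summed epithelial and gland markers were 1468 to 10852 in control leg (median 2138) and 5312 to 6227 in control EOM. The part of this mix of cells in the lower level of the standard subunits in EOM was not tested.

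Of the 41 members, 6 regulatory particle genes were too dim to test. They were the ATPases Psmc1, Psmc4 and Psmc5, the non-ATPase subunits Psmd2 and Psmd6, and the assembly chaperone Psmd10. They reached at most 176, 202, 237, 217, 287 and 215 on any of the 20 arrays. Most of these encode subunits that every proteasome needs, so the low values may not measure the genes, which was not tested. Another 6 members had more than 1 probe set (Psmb1, Psmb4, Psmb5, Psmc3, Psmd11 and Psmd13), and the brightest was used. The probe sets of Psma3, Psmb4, Psmb7, Psmc3 and Psmd12 are of a type whose probes can bind similar sequences of a family, which include processed copies of these genes.

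Genes that work with the proteasome were read from lists on the array. Of 16 tested assembly factors and accessory proteins, none passed between mdx and control leg, and 2 of the 16 were lower in control EOM than in control leg, against 7.41% of all probe sets. These were Uchl5, a deubiquitinase of the regulatory particle (-0.65, limma adjusted p = 0.0302), and Ubqln1, a shuttle for ubiquitinated proteins (-0.32, limma adjusted p = 0.0399). Uchl5 was also lower in mdx EOM than in mdx leg (-0.68, limma adjusted p = 0.0227).

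Of 15 tested genes of ubiquitin and its conjugation, 5 fell and 1 rose in mdx leg, with a median of -0.19, where 7.15% of all probe sets fell, 10.7% rose and the median was -0.06. Ube2b, an E2 that works with N-end rule ligases, fell by 0.70 (limma adjusted p = 1.63e-04), from 6959 ± 995 in control leg to 4278 ± 496 in mdx leg, and no mdx array reached the lowest control array. Cdc34, the E2 of the SCF ligases, fell by 0.67 (limma adjusted p = 0.0017), and Ube2g1, Ube2d3 and Ube2r2 fell by 0.53, 0.54 and 0.55. Ube2n, which builds K63-linked chains, rose by 0.35 (limma adjusted p = 0.0317). For Ube2b and Cdc34 the effect was lower in leg than in EOM (by 0.62 and 0.67, limma adjusted p = 0.0266 and 0.0486), and in EOM 0 of the 15 passed.

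Between the muscles of control mice 3 of the 15 were lower in EOM, against 7.41% of all probe sets, and none was higher. Ube2g1 was 4596 ± 601 in leg and 1629 ± 84.7 in EOM (log2 -1.49, limma adjusted p = 1.10e-08), and Cdc34 was 4546 ± 623 and 1903 ± 437 (log2 -1.28, limma adjusted p = 9.89e-07). Ube2b was also lower, at -0.67 (limma adjusted p = 2.78e-04). In mdx mice 4 of the 15 were lower in EOM (Ube2g1, Cdc34, Ube2e1 and Ube2n), against 8.83% of all probe sets. Of 12 listed muscle ubiquitin ligases 3 were tested (Nedd4, Traf6 and Mdm2), and 0 were called in any comparison.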

How the data were processed

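The authors deposited 1 table of linear intensity per probe set, with a trimmed mean of 1500.1 on every array. The summarising software is not given in the sources used. Intensities were rescaled to a 2% trimmed mean of 500 over the 12588 probe sets that are not controls, set to at least 50, and put on the log2 scale. Testing was limited to 7204 probe sets with 200 or more on 5 or more of the 20 arrays, and used limma 3.58.1 (R 4.3.3), with an intensity trend and 1 fit of 4 groups (16 residual df), adjusted by Benjamini-Hochberg within each of 5 contrasts at 5%. Folds come from log2 values after the floor, which shrinks them for dim genes. Genes were named from the platform annotation through probe sets with 1 symbol, by the brightest. Members named are all called ones, all immune subunits with their counterparts, and those nearest a threshold, the last chosen after their values were seen. The members and lists were chosen with earlier results of these data known. Alternatives covered normalization, floor, pseudocount, filter, intensity trend, array weights, groups fitted, replicate number and each array left out. The number of arrays limits the precision. The fit was tested on simulated data.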

Additional observations from a re-analysis of the deposited data

Results flagged for a closer look

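In 9 of 56 groups of 5 arrays, over 14 members, 1 array lay further from the others than Dixon's 95% critical value, where chance gives about 1 in 20. Of these, 5 were immune subunits on a control array numbered 1. Psmb8 was 1409 on control leg array 1 (424 to 562 on the others) and 1946 on control EOM array 1 (702 to 932). On control EOM array 1, Psmb9 was 756 (64.3 to 207), Psmb10 was 1600 (913 to 1061) and Psme1 was 1540 (1080 to 1152). Psmb7 was 7127 on control leg array 1 (4013 to 4711). Psmb5 was 3148 on mdx leg array 5 (3824 to 3904). Psmd7 was 2749 on control EOM array 5 (2104 to 2217). Psmc6 was 2336 on mdx EOM array 5 (4358 to 5072). What set these arrays apart was not tested.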

How the results depend on the processing

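Psme4 was called in mdx leg under every alternative run, and no called member changed its direction under an alternative. The number of members called in mdx leg, 1 as reported, was 2 with quantile normalization, a floor of 100, log2(value + 50) or only the groups compared, 3 with a filter at 500, 4 with array weights, and 3 without control leg arrays 1 and 4 or without both control arrays numbered 1, which were chosen after seeing the data. Leaving out each array gave 1 to 4, with 4 without mdx leg array 1. For the difference of the mdx effect the count, 0 as reported, was 1 (Psmb8) with array weights and without either pair of control arrays, and 0 to 1 over single arrays. In EOM it was 0 throughout. Between control muscles the 8 calls became 6 to 9. Between mdx muscles the 5 calls became 3 to 7 over single arrays (3 without mdx leg array 2 or 4, 7 without control leg array 1) and 8 without both control arrays numbered 1. A replicate block gave 4 calls in mdx leg. Whether the numbers pair the arrays was not settled: over 30 same-numbered pairs r was -0.084 to 0.228. Of these, 11 correlated best with their own number among the 5 arrays of the other group. The 4 pairs with r over 0.1 each joined a control and an mdx array of the same muscle (leg 1, 3 and 5, and EOM 5). Psmb9 and Psme2 have no value with a filter at 500. Signal near background limits Psmb9, Psme2 and 6 untested members.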
